A study of Danio rerio with 2 samples.

Results

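Neurotransmitter-gated receptor channels were described from 1 RNA library of supt16h mutants and 1 of their wild-type siblings, each made from whole zebrafish embryos 32 hours after fertilisation. The members were the gene loci whose symbol began with a prefix for subunits of glutamate (gria, grin1 to grin3, grik and grid), GABA-A (gabr), glycine (glra and glrb), nicotinic acetylcholine (chrn), serotonin (htr3) or ATP (p2rx) receptors. This rule used names alone and found 73 of the 34728 loci in the authors' expression table, of which 71 code for channel subunits. The remaining 2 loci code for no channel subunit and are counted as members without a class.

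FACT, a histone chaperone that takes apart and rebuilds nucleosomes, has a subunit encoded by supt16h, and the labels describe the mutant as homozygous and as the product of a forward genetic screen. The sources used here give neither the allele nor the strain background, nor how many embryos were pooled. Expression of supt16h was 2.98 FPKM in the mutant library and 44.4 FPKM in the sibling library, where FPKM counts fragments mapped to a transcript, scaled for its length and for sequencing depth. All loci together held 1095950 FPKM in the mutant library and 1029580 FPKM in the sibling library, and the steps between low values gave a ratio of sequencing depth, mutant over sibling, of 1.53. Because each genotype had 1 library, no test between genotypes was possible, and each difference below describes these libraries without a check against variation between embryos. A sample of whole embryos also cannot tell fewer cells of a type from less RNA per cell.

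Receptor channels of this kind open when a transmitter binds and let ions cross the membrane within milliseconds. Glutamate, acetylcholine, serotonin and ATP receptors pass cations and excite the cell, whereas GABA-A and glycine receptors pass chloride, which inhibits mature neurons and can depolarise embryonic ones. Each channel is assembled from several subunits, so the subunit genes a cell transcribes set which receptors it can build, and skeletal muscle builds its own nicotinic receptor at the synapse with motor neurons.

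Most receptor channel genes were expressed at low levels in both libraries. A locus was called measured when its mean over the libraries was at least 1 FPKM, which held for 32 members (43.8%) and for 59.4% of all loci. Differences, mutant minus sibling, are on the scale of log2(FPKM + 1), which makes changes of weakly expressed genes look smaller, and a locus was counted when its difference reached 2-fold. A mean of at least 5 FPKM held for 12 of the 32 measured members and for 13116 of the 20638 measured loci. The scale therefore shrinks changes of members more often than those of the background. By that count 3 of the 32 measured members were higher in the mutant library, gria4b, chrng and chrne, against a background of 6.75% of all measured loci. No member was at least 2-fold lower, against 8.36% of all measured loci, and 29 lay between these limits. Of the 32, 19 stood above 0 (59.4%, against 50.1% of all measured loci). The median difference was 0.19 over the measured members and 0.0012 over all measured loci. The members' median lay at 0.0028 once the muscle nicotinic subunits were set aside, over 26 loci. The authors' deposited table, which compares 1 library with 1 library by its own error model, called 0 of the 29 members it tested, against 0.469% of all tested loci.

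**Figure D1:**
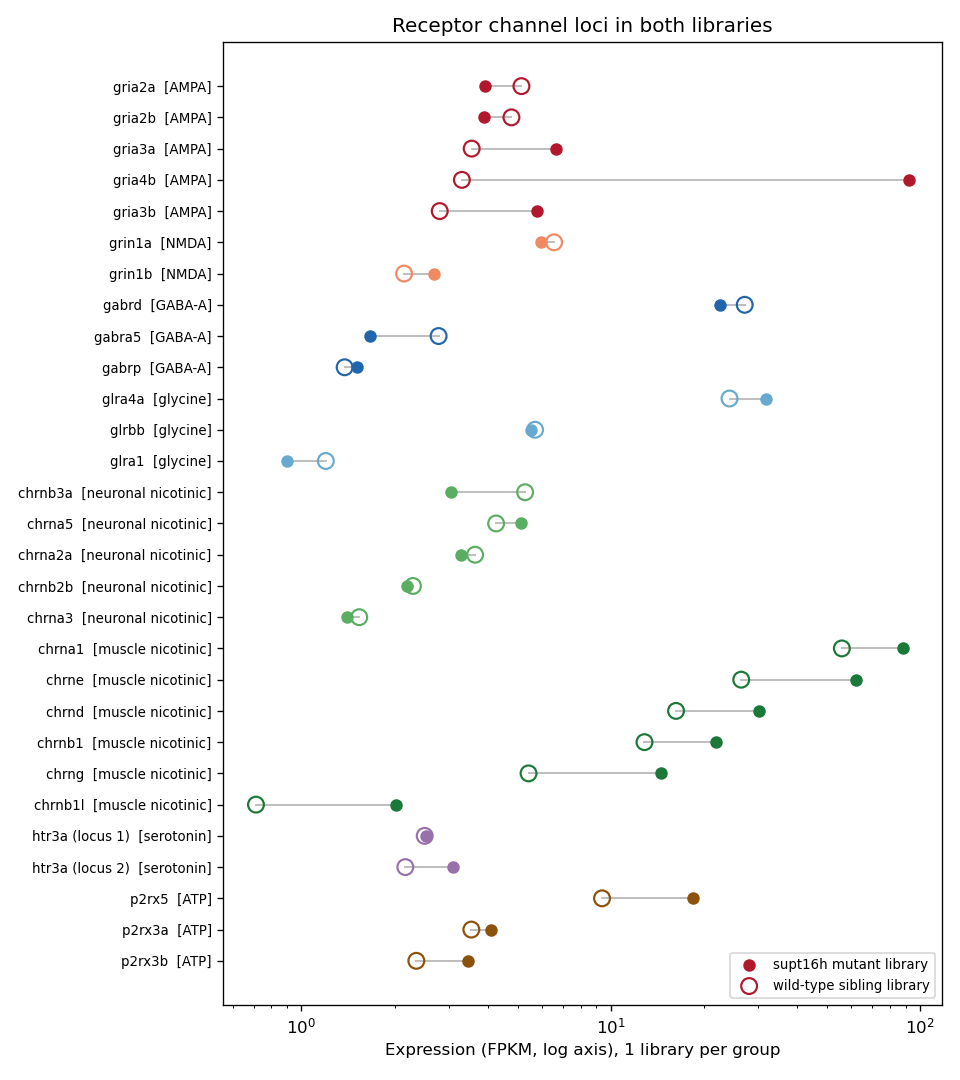
Expression of 29 measured receptor channel loci in FPKM on a log axis, with filled points for the mutant library, open rings for the sibling library and 1 library per group. The 6 muscle nicotinic loci and gria4b all have their filled point to the right, while most GABA-A, glycine and neuronal nicotinic loci have both points close together.

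The muscle nicotinic receptor genes formed the most abundant class and stood higher in the mutant library at each of their 6 loci, as did 50.1% of all measured loci. The muscle receptor is a pentamer of alpha1, beta1 and delta subunits with either a gamma or an epsilon subunit, and in mammals gamma marks the foetal and epsilon the adult form. Summed over the 6 loci, their level was 219 FPKM in the mutant library and 118 FPKM in the sibling library, a ratio of 1.86. The median difference of the class was 0.84, with a range of 0.65 to 1.27. The weakest of the 6 genes, chrnb1l, counted as measured only through the mutant library. Without it, as with a mean of at least 5 FPKM, the median was 0.86.

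Both genes for the subunit that varies between foetal and adult receptors passed the 2-fold limit. The gamma subunit gene chrng, at 45142975 to 45158867 on chromosome 2 in Zv9 coordinates, had 14.5 FPKM in the mutant library and 5.43 FPKM in the sibling library, a 2.68-fold level. The epsilon subunit gene chrne, on chromosome 5 from 40040555 to 40051539, had 62.3 FPKM in the mutant library and 26.5 FPKM in the sibling library, a 2.36-fold level. The ratio of chrng to chrne was 0.233 in the mutant library and 0.205 in the sibling library, so the balance of these genes differed far less than their levels. The authors' deposited table gives chrne a p-value of 0.0467 and chrng a p-value of 0.0499, with q values of 0.751 and 0.777, so neither was called there. A standard error of each authors' log2 change, taken as that change divided by its test statistic, was 0.62 for chrne and 0.72 for chrng.

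The other muscle subunits stood higher by less than 2-fold on the scale used. The alpha1 gene chrna1, which carries the main acetylcholine binding surface, had 88.3 FPKM in the mutant library and 56.0 FPKM in the sibling library. It is the most abundant of the 6 genes in both libraries, at 40.2% of the summed level in the mutant library and 47.5% in the sibling library. The delta gene chrnd, on chromosome 24 from 25967724 to 25975674, had 30.3 FPKM in the mutant library and 16.3 FPKM in the sibling library. The beta1 gene chrnb1, on chromosome 7 from 23711039 to 23747057, had 22.0 FPKM in the mutant library and 12.9 FPKM in the sibling library. Next to it on the same chromosome, chrnb1l had 2.01 FPKM in the mutant library and 0.713 FPKM in the sibling library, and it counted as measured only through the mutant library. The level of chrna1 is the least certain of these. The table lists it from 10692092 to 10774598 on chromosome 6, coordinates it shares with atp5g3b, lnpb and wipf1, and its implied standard error was 4.66, against a median of 0.74 over all tested loci.

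Skeletal muscle markers also stood higher in the mutant library. All 27 markers of skeletal muscle were above 0, with differences from 0.13 to 1.17 and a median of 0.59. Of these, 4 were at least 2-fold higher, against a background of 6.75% of all measured loci. The 27 markers summed to 62336 FPKM in the mutant library and 41516 FPKM in the sibling library. Their ratio was 1.501, beside 1.86 for the muscle receptor genes. Among these markers the creatine kinase gene ckma had 3836 FPKM in the mutant library and 1704 FPKM in the sibling library, whereas the troponin gene tnni2a.4 had 1478 FPKM in the mutant library and 1352 FPKM in the sibling library. The 4 epidermis markers stood higher too, with a median of 0.52 and a summed ratio of 1.41. The 6 blood loci had a median of -0.46. The part of muscle content in the receptor difference was not tested.

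Genes that build the muscle synapse around the receptor were split in direction. Of 7 measured loci of this kind among the receptor partners, a grouping by role made after their values were seen, 5 stood higher in the mutant library and 2 lower. The scaffold gene rapsn, whose product clusters the muscle receptor, had 20.2 FPKM in the mutant library and 12.04 FPKM in the sibling library. Its upstream kinase gene musk had 3.93 FPKM in the mutant library and 1.92 FPKM in the sibling library. The adaptor dok7, the collagen tail colq and the acetylcholinesterase gene ache also stood above 0, with differences of 0.35, 0.30 and 0.21. Both loci named agrn, the nerve-derived signal that activates musk, stood lower, with 1.25 and 10.4 FPKM in the mutant library and 4.48 and 17.0 FPKM in the sibling library.

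**Figure D2:**
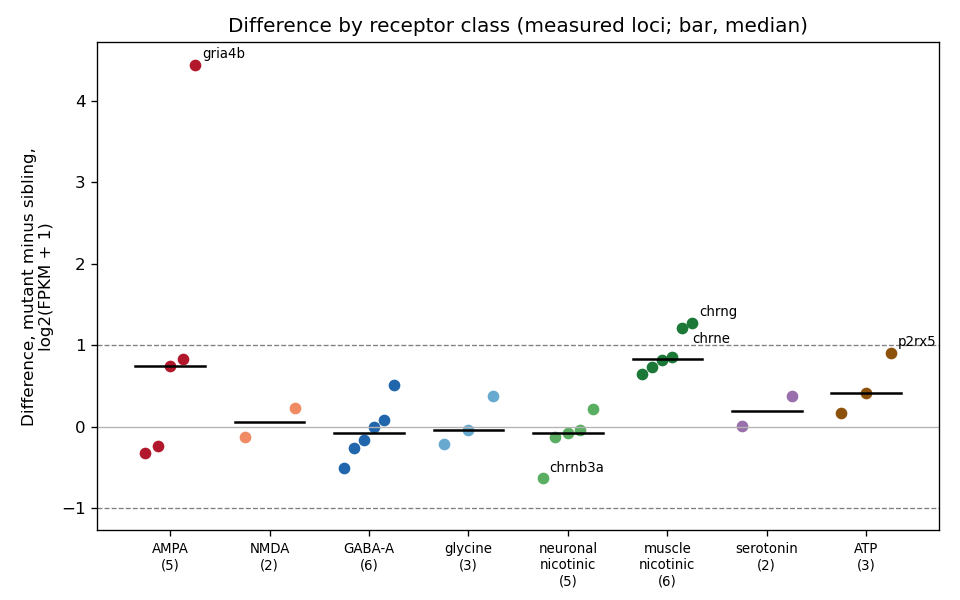
Difference between the libraries, mutant minus sibling, in log2(FPKM + 1) for each measured locus by receptor class, with the number of loci in brackets, a bar at the median and dashed lines at 2-fold. All 6 muscle nicotinic loci lie above 0, and gria4b at 4.44 lies above all other members.

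Neuronal nicotinic subunits, which form cation channels in the brain, ganglia and sensory neurons, were expressed at far lower levels than the muscle class and were close between the libraries. Summed over 14 loci they had 17.9 FPKM in the mutant library and 19.1 FPKM in the sibling library. Over the 5 measured loci the median difference was -0.08, with a range of -0.63 to 0.22. None was at 2-fold, against 6.75% of all measured loci higher and 8.36% lower. The beta3 gene chrnb3a had 3.06 FPKM in the mutant library and 5.29 FPKM in the sibling library, the lowest difference of any measured member. The accessory alpha5 gene chrna5 had 5.12 FPKM in the mutant library and 4.26 FPKM in the sibling library. Between these, chrna2a had 3.28 FPKM in the mutant library and 3.64 FPKM in the sibling library, and the alpha3 gene chrna3, of ganglionic receptors, had 1.41 FPKM in the mutant library and 1.54 FPKM in the sibling library. The widespread beta2 gene chrnb2b had 2.20 FPKM in the mutant library and 2.29 FPKM in the sibling library. In this class 9 loci were below the limit for measured loci. Among these, chrna2b had 0.728 FPKM in the mutant library and 1.18 FPKM in the sibling library, and chrna10 was listed at 0 in both. The direction of a difference cannot be judged at such levels.

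Such low values can rest on very few fragments. After allowing for the depth ratio, the alpha7 gene chrna7, with 0.521 FPKM in the mutant library and 0.133 FPKM in the sibling library, had a mutant to sibling fragment ratio of 5.99. The ratio was 3.996 for chrna6, 3.986 for grin3b and 1.996 for chrna9. Of 31 members below the limit and above 0 in both libraries, 9 lay within 0.02 on the log2 scale of a whole multiple of the sibling value. A single sibling fragment would give this, but so can ratios of larger counts. The ratios named above were picked for lying near whole numbers, so they are no evidence of how few fragments there were. Among the 9, gabra3 and p2rx8 had ratios of 1.006 and 1.004. The depth ratio was itself set from the most common ratio, so these matches do not show the fragment number. No such share over all loci is given beside the count.

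AMPA receptors, the channels of fast excitatory transmission, held the member with the largest difference. The locus gria4b, on chromosome 21 from 20845937 to 21034381, had 92.5 FPKM in the mutant library and 3.30 FPKM in the sibling library, a 28.0-fold level. It ranked 117th from the top among the 20638 measured loci by difference. The authors' deposited table did not call it, with a log2 change of 4.81, an implied standard error of 3.55 and q = 1.00. An implied standard error above 3 occurred at 3.74% of tested loci and at 2 members, gria4b and chrna1. The table gives gria4b the same coordinates as a pair of 5S_rRNA loci inside it, and how the authors' counting divided fragments there is not given in the sources used here.

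Its duplicate gria4a had 0.755 FPKM in the mutant library and 0.761 FPKM in the sibling library. Both values lie below the limit for measured loci, so closeness between the libraries cannot be judged for gria4a. Of the summed AMPA level, gria4b made up 81.0% in the mutant library and 15.7% in the sibling library. That sum was 114 FPKM in the mutant library and 21.1 FPKM in the sibling library over 8 loci. Without gria4b it was 21.6 FPKM in the mutant library and 17.8 FPKM in the sibling library, a ratio of 1.22.

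Among the other AMPA genes, the gria2 and gria3 copies went in opposite directions, each pair together. In mammals the subunit encoded by the gria2 orthologue makes AMPA receptors nearly impermeable to calcium once its RNA is edited. The copies gria2a and gria2b had 3.93 and 3.90 FPKM in the mutant library and 5.15 and 4.78 FPKM in the sibling library. For gria3a and gria3b the values were 6.66 and 5.78 FPKM in the mutant library and 3.55 and 2.80 FPKM in the sibling library. The ratio of summed gria2 to summed gria3 was thus 0.630 in the mutant library and 1.56 in the sibling library. The quartiles of the difference over all measured loci were -0.42 and 0.39. Both gria2 differences, -0.32 and -0.24, lay between these quartiles, while those of gria3a (0.75) and gria3b (0.83) lay above them. The lower level of the gria2 copies thus cannot be told from the spread of other loci. The gria3b locus shares its listed coordinates with another locus, so the division of reads there is uncertain. None of these 4 loci was called in the authors' deposited table, where implied standard errors ran from 0.63 for gria2a to 1.33 for gria3b and exceeded the log2 change at each locus but gria3a. The gria1 copies were below 1 FPKM in both libraries.

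**Figure D3:**
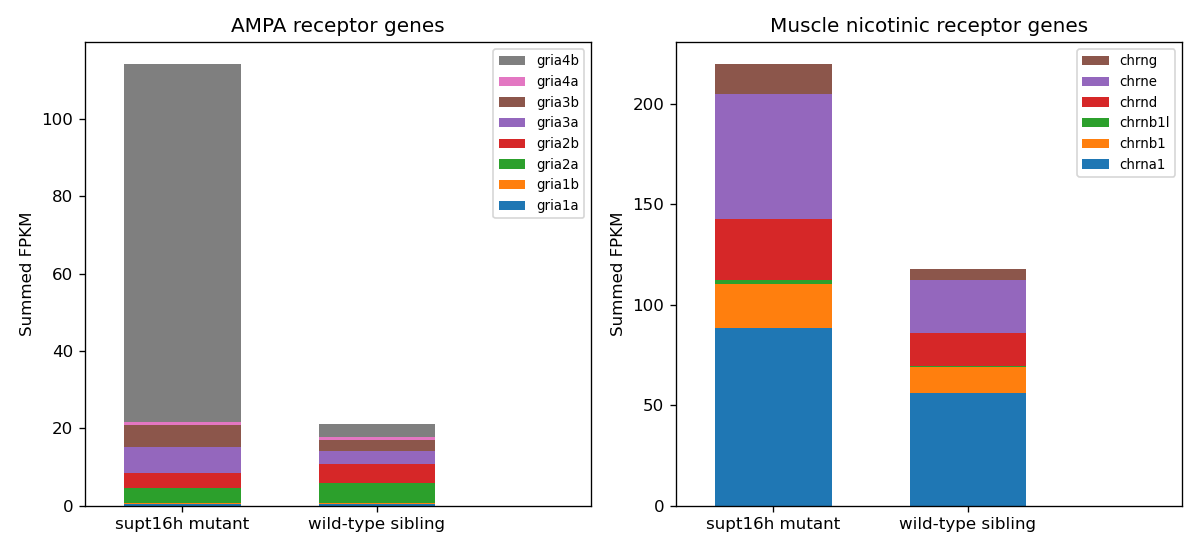
Summed FPKM of the 8 AMPA receptor loci and the 6 muscle nicotinic receptor loci in the mutant library and, to its right, the sibling library, with 1 library per bar and a segment per gene. The AMPA total of 114 against 21.1 FPKM is mostly gria4b, while the muscle total of 219 against 118 FPKM keeps a similar mix of genes.

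The other glutamate receptors with lower-case symbols were low, and the 2 measured NMDA loci were close between the libraries. NMDA receptors, which need glutamate, a co-agonist and depolarisation to open, all contain the subunit encoded by grin1. Its copy grin1a had 5.95 FPKM in the mutant library and 6.56 FPKM in the sibling library, and grin1b had 2.69 FPKM in the mutant library and 2.15 FPKM in the sibling library. The grin2 loci with lower-case symbols, whose products bind glutamate, summed to 2.15 FPKM in both libraries, and none of them was measured. That sum leaves out GRIN2B (1 of 2), a locus outside the lower-case rule, which alone had 2.92 FPKM in the mutant library and 1.18 FPKM in the sibling library. No lower-case grin3 or kainate locus was measured. Over the whole transmitter group, the median difference was 0.23 over 7 measured loci, gria4b among them. The other 14 of 21 loci were below the limit, with values from 0.0994 to 0.787 FPKM. Closeness between the libraries cannot be judged for these loci at such levels.

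GABA-A and glycine receptors also differed little. The GABA-A genes summed to 32.7 FPKM in the mutant library and 37.7 FPKM in the sibling library over 13 loci, with a median difference of -0.08 over 6 measured loci. The delta subunit gene gabrd, whose mammalian product serves tonic inhibition outside synapses, carried most of this at 22.6 FPKM in the mutant library and 27.1 FPKM in the sibling library. The alpha5 gene gabra5 stood lowest of the class by difference, with 1.67 FPKM in the mutant library and 2.78 FPKM in the sibling library. It shares its listed coordinates with other loci, so the division of reads there is uncertain. The pi subunit gene gabrp, found mostly outside the nervous system in mammals, had 1.51 FPKM in the mutant library and 1.38 FPKM in the sibling library. In this class 7 loci, among them the 3 rho loci for GABA receptors of the retina, had a mean below the limit, at 1.18 FPKM or less in either library.

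Glycine receptors mediate inhibition in spinal cord and hindbrain, and their genes were dominated by the alpha subunit gene glra4a in both libraries. It had 31.7 FPKM in the mutant library and 24.2 FPKM in the sibling library, 83.0% of the summed glycine receptor level in the mutant library and 77.6% in the sibling library. The beta gene glrbb, whose product ties the receptor to the scaffold gephyrin, had 5.51 FPKM in the mutant library and 5.70 FPKM in the sibling library. Neither gene reached 2-fold. The gene glra1 had 0.899 FPKM in the mutant library and 1.199 FPKM in the sibling library, and it counted as measured only through the sibling library. The class median was -0.04 over 3 measured loci and 0.17 without glra1.

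Serotonin and ATP receptor channels stood above 0 at all 5 measured loci in the deposited values, as did 50.1% of all measured loci. Their median difference of 0.37 lay between the quartiles of all measured loci, -0.42 and 0.39. None was at 2-fold, against 6.75% of all measured loci higher and 8.36% lower. The lowest of them, a locus of htr3a at 0.0095, turned to -0.0047 when the libraries were scaled to equal medians and to -0.0549 when scaled to equal sums. The ATP receptor gene p2rx5, which in mammals is active in developing skeletal muscle, had 18.4 FPKM in the mutant library and 9.38 FPKM in the sibling library. Its difference of 0.90 lay inside the range of the muscle nicotinic subunits, but so did gria3a (0.75) and gria3b (0.83). The tissue behind the p2rx5 difference was not tested. The genes p2rx3a and p2rx3b, whose mammalian orthologue serves sensory neurons, had 4.12 and 3.45 FPKM in the mutant library and 3.54 and 2.35 FPKM in the sibling library. Each of the pair of loci named htr3a codes for a serotonin-gated channel subunit. They had 2.53 and 3.102 FPKM in the mutant library and 2.50 and 2.17 FPKM in the sibling library. The remaining loci of both families were at most 0.689 FPKM.

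Members listed at 0 in the sibling library alone numbered 6, gabra6a, gabrr1, glra4b, p2rx2, p2rx4b and p2rx7, with 0.0665 to 0.230 FPKM in the mutant library. In the mutant library alone, 1 member, glrba, was listed at 0, with 0.0875 FPKM in the sibling library. Zeros were also more frequent in the sibling library over all loci, with 5.76% at 0 in that library alone and 1.95% at 0 in the mutant library alone, beside the greater depth of the mutant library, whose part was not tested. A further 3 members, chrna10, gabrr2a and gabra6b, were listed at 0 in both.

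Median differences lay slightly below 0 for the genes around the neuronal receptors and also for the neuron markers. The 19 neuron markers had a median difference of -0.19, with 2 at least 2-fold lower, elavl3 and cntn2, and 0 higher, counts near the background of 8.36% lower and 6.75% higher. These markers summed to 713 FPKM in the mutant library and 1035 FPKM in the sibling library. Receptor partners without those of the muscle synapse, a split made after their values were seen, had a median of -0.25 over 22 measured loci. Of these, 18 were below 0, as were 10300 of all 20638 measured loci. The AMPA receptor anchor grip2a had 6.80 FPKM in the mutant library and 13.9 FPKM in the sibling library, and the auxiliary gene cnih3 had 1.36 FPKM in the mutant library and 3.50 FPKM in the sibling library. With the muscle genes included, 29 measured partner loci had a median of -0.22, with 1 higher and 1 lower by 2-fold. These were the scaffold gene shank3b, with 3.01 FPKM in the mutant library and 0.865 FPKM in the sibling library, and the less abundant agrn locus. The count of shank3b as measured rests on the mutant library, where it is high.

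Genes that make, pack and take up the transmitters had a median of -0.19 over 19 measured loci. The lower end was held by glial glutamate transporters, slc1a3b with 1.51 FPKM in the mutant library and 5.75 FPKM in the sibling library, and slc1a3a with 76.7 FPKM in the mutant library and 148 FPKM in the sibling library. Radial glia and glia markers, among them slc1a3b, had a median of -1.64, with 5 of 6 at least 2-fold lower, against 8.36% of all measured loci. The authors' deposited table called 2 of the 6, plp1a and her4.1, against 0.469% of all tested loci. At the upper end of the transmitter genes stood the serotonin transporter slc6a4a, with 4.72 FPKM in the mutant library and 1.25 FPKM in the sibling library. Beside it, the serotonin synthesis enzyme tph2 had 1.82 FPKM in the mutant library and 0.612 FPKM in the sibling library. The gene tph2 counted as measured only through the mutant library. A second synthesis enzyme gene, tph1b, stood lower, with 1.89 FPKM in the mutant library and 2.42 FPKM in the sibling library. The vesicular transporter slc32a1, which loads GABA and glycine, had 8.91 FPKM in the mutant library and 8.69 FPKM in the sibling library. Its acetylcholine counterpart slc18a3a had 9.93 FPKM in the mutant library and 11.2 FPKM in the sibling library.

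The metabotropic receptors of the same transmitters, which signal through G proteins, were mostly low, with 21 of 24 loci below the limit, 3 of them listed at 0 in both libraries, and a median of -0.26 over the 3 measured. The other marker lists had medians of 0.02 over 3 hair cell loci, -0.46 over 6 blood loci and 0.52 over 4 epidermis loci. The part of cell makeup in the differences of the neuronal receptor genes was not tested.

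**Figure D4:**
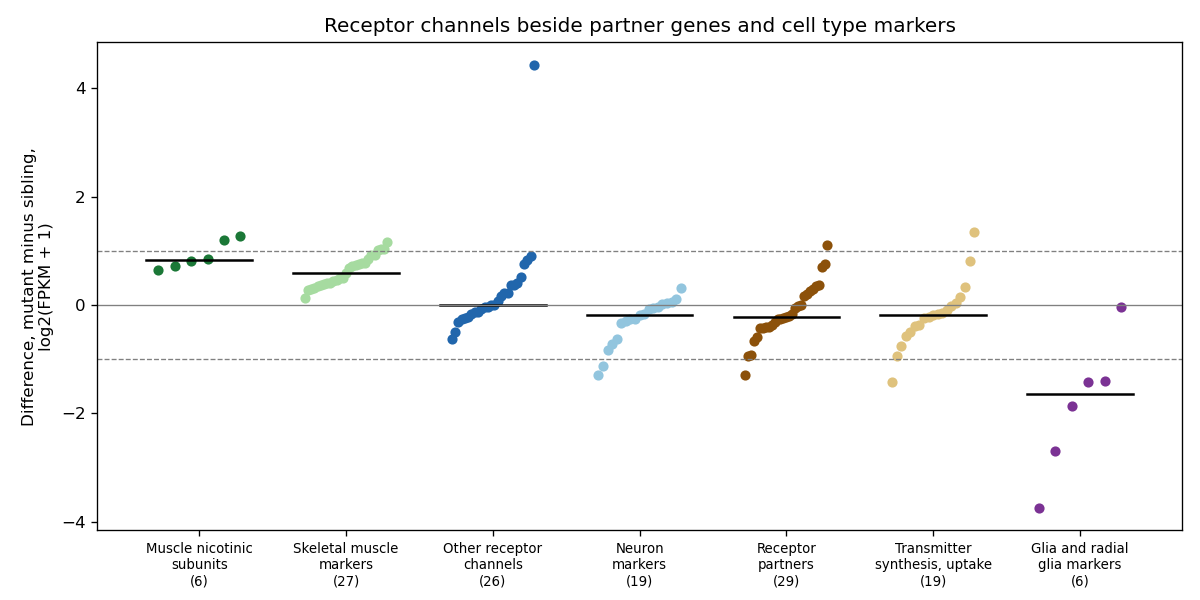
Difference between the libraries, mutant minus sibling, in log2(FPKM + 1) for measured loci of the muscle nicotinic subunits, the other receptor channels and the gene lists beside them, with the number of loci in brackets, bars at medians, dashed lines at 2-fold and a thin line at the median of all measured loci. Muscle subunits and muscle markers lie above 0, at medians of 0.84 and 0.59, while the other receptor channels have a median of 0.0028 and neuron markers of -0.19.

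The deposited variant table gave a second readout of the members. All 7447 sites in it were called homozygous. It held 23 sites in 14 member genes, covered by 2 to 5 reads, and the sources used here do not say which library it came from. Of these sites, 18 were synonymous, 1 was placed in a gene without a coding effect, and 4 altered an amino acid. Of the 22 coding sites in members, 18.2% altered an amino acid, against 41.5% of 5779 coding sites in the whole table, with no test made of this.

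The best supported of the 4 by quality score lay in gria4a. At position 43412105 of chromosome 15, in coding sequence inside the gria4a locus, an A-to-G change on the coding strand turned an AGA codon into GGA and gave R760G, numbered from the first codon of the annotated transcript. It had 4 reads and a quality score of 103. In rat, RNA of several AMPA subunits is edited from A to inosine, read as G, at an arginine codon that then codes for glycine. The deposited table does not tell an edited RNA base from a base in the genome, and which it was here was not tested. AGA-to-GGA changes occurred at 8 sites in the whole table. The other altered residues were N879S in gria1a with 4 reads, G357V in chrnb2b with 3 reads and R503Q in grik1a with 2 reads.

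Loci that carry upper-case symbols of the same families were outside the rule. There were 24 of them and 4 were measured. On the log2(FPKM + 1) scale none of the 4 reached 2-fold, against 6.75% of all measured loci higher and 8.36% lower. Without the added 1 FPKM, GRIN2B (1 of 2) had a 2.47-fold level in the mutant library. Beside GRIN2B (1 of 2), GABRR1 (1 of 2) had 1.40 FPKM in the mutant library and 0.801 FPKM in the sibling library. GABRR1 (1 of 2) counted as measured only through the mutant library. CHRNB4 had 1.93 FPKM in the mutant library and 2.81 FPKM in the sibling library, and GLRA3 had 2.44 FPKM in the mutant library and 2.59 FPKM in the sibling library.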

How the data were processed

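RNA from 1 mutant and 1 sibling library, grouped by title, was analysed. The authors deposited 1 FPKM value per locus and library, with a log2 ratio, p-value and q-value, per the file headers. Zv9, Cuffdiff, Cufflinks 2.2.1, TopHat2 2.1.1 and CASAVA 1.8 appear, without roles or options, per the submitters' processing notes. The deposited variant table carries a quality score and a coverage count per site and names SnpEff 3.1k in its header, while the sources used here name no caller.

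Counts and medians skip loci of status FAIL or HIDATA and those averaging under 1 FPKM. Differences used log2(FPKM + 1) without rescaling. No p-value was computed. The authors' p-value matched the normal tail of their statistic within 0.001 at 100% of tested loci with a finite statistic, so a standard error was taken as the log2 change over that statistic. Relative depth came from the most common ratio of values below 0.5 FPKM at 2320 loci, of which 10.1% lay within 0.02 on the log2 scale of that step.

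Members and the 9 partner, transmitter, metabotropic and marker lists were chosen with earlier results of these data known. Full values are given for members that reached 5 FPKM in 1 library or passed 2-fold, and many others are named by class. Unlisted names (atp5g3b, lnpb, wipf1 and the upper-case loci) were added after their values were seen. The values of some members are not reported here. Python 3.11.15 with pandas 2.3.3 was used.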

Additional observations from a re-analysis of the deposited data

Results flagged for a closer look

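The variant table was used in no comparison between genotypes, and 7 of its sites in member genes had more than 3 reads. A site is listed there because reads covered a called variant, so this coverage describes the sites and tests nothing. The median coverage was 2 reads at member sites and 4 reads over the whole table. Coverage was 5 at the synonymous sites at 24840730 and 24840796 of chromosome 16 in chrnb2b and at 38346336 of chromosome 6 in gabra5. Coverage was 4 at the synonymous sites at 21175945 of chromosome 1 in chrnb3a and at 15367552 of chromosome 15 in p2rx8. It was also 4 at the amino acid changing sites at 35219530 of chromosome 14 in gria1a and at 43412105 of chromosome 15 in gria4a.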

How the results depend on the processing

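With 1 library per group no replicate could be left out, and no paired analysis was possible because the groups hold 1 sample each. No lower member appeared under any of the alternatives listed for these data. The count of higher members was 5 with 0.1 FPKM added, beside a background of 9.46%. There gria3b (1.02) and chrnb1l (1.38) joined, and chrnb1l counted as measured only through the mutant library. In the main setting the medians were 0.84 for muscle nicotinic, 0.23 for glutamate and 0.37 for serotonin and ATP receptors. With 5 FPKM added they were 0.67, 0.11 and 0.18, and chrng fell short of 2-fold (0.91). With 0.1 FPKM added the muscle median was 1.06 and the serotonin and ATP median 0.50. Without a filter on low values the medians were 0.0615 for all members, 0.0163 for glutamate and 0.19 for serotonin and ATP receptors, and that of the neuronal nicotinic loci turned to 0.0341. With a mean of at least 5 FPKM the median was 0.74 for all 12 members left. These included every muscle nicotinic locus but chrnb1l and no neuronal nicotinic locus. The glutamate median was then 0.75, from grin1a, gria3a and gria4b. The GABA-A value of -0.26 was that of gabrd alone, and the serotonin and ATP value of 0.90 that of p2rx5 alone. The glycine median turned to 0.17, from glra4a and glrbb, as it did with tested loci alone (0.17). Matching upper-case symbols gave a glutamate median of 0.49. Leaving out gria4b and chrna1 for their implied standard errors above 3, a choice made after seeing the data, gave a glutamate median of 0.0535. The cause of these shifts was not tested beyond the members each setting adds or removes. Because all 6 muscle nicotinic loci stood above 0, a change of the added FPKM, filter or symbol rule could not turn their median. Scaling to equal medians or equal sums gave muscle medians of 0.82 and 0.77 and moved no median by more than 0.1.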
